A study of Mus musculus with 12 samples.

Results

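Broad accessible regions are stretches of chromatin that were open without a break over 2000 bp or more in at least 1 library. They were chosen by width: every single peak on chromosomes 1 to 19 whose end minus start reached 2000 bp in any of 12 peak lists was taken, and those that shared 1 bp or more were merged. This gave 331 broad regions, of 43905 regions formed by merging all peaks of the 12 lists in the same way, and together they spanned 896 kb with a median length of 2355 bp. Width was the choosing measure, so the widths below are a description and were not tested. Breadth and calls were tested only for regions chosen in 1 group, and only among the libraries of the groups that took no part in that choice.

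The assay was ATAC-seq, which tags open DNA with adapters carried by a transposase. Each sample held 150000 sorted CD45.2+ cells from the marrow of C57BL/6 mice. The groups of 3 libraries each were BN1 (genotype CD45.2(+) BRD9-NUTM1), ME (CD45.2(+) MLL-ENL), MA9 (CD45.2(+) MLL-AF9) and Control (CD45.2(+), with no fusion named). The fusions join the chromatin reader BRD9 to NUTM1, and the histone methyltransferase MLL to ENL or AF9. The labels did not give age, how a fusion was introduced, or whether replicates were separate animals, so p-values measure only the spread between these libraries. Within 1 kb of Ptprc, which encodes CD45, each BN1 list held 0 peaks, each ME list 1, each MA9 list 3 and each Control list 4. The CD45.2+ label is thus not marked by a peak at its own gene in BN1.

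Most accessible sites are short and mark a single promoter or enhancer. Long unbroken stretches are known at highly transcribed genes, where open chromatin can run through the whole gene, and at CpG-rich promoters of regulators, since CpG islands keep nucleosome occupancy low. In marrow, the most abundant transcripts include those of granule proteins of maturing neutrophils, haemoglobin in red cell precursors, and immediate-early genes that respond within minutes to handling or signals.

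The promoters of 7 genes were picked as examples of the differing CpG content of promoters inside broad regions. Their sequences are printed from 250 bases before to 50 bases after the RefSeq start (GRCm38.p6), with each CpG dinucleotide in capitals. Other promoters went the other way. The promoter of Hoxa9, in a region broad in MA9 and in no Control library, held 4 CpGs, and those of Cd47, broad in Control alone, held 35 and 36. Ptma (chr1:86526307-86526606, + strand), Hmga1 (chr17:27556324-27556623, + strand) and Cdk6 (chr5:3343643-3343942, + strand) lay in regions broad in all 3 MA9 libraries. They held 28, 40 and 27 CpGs. The Ptma region was also broad in some ME and Control libraries, and the Hmga1 region in every ME library.
Ptma: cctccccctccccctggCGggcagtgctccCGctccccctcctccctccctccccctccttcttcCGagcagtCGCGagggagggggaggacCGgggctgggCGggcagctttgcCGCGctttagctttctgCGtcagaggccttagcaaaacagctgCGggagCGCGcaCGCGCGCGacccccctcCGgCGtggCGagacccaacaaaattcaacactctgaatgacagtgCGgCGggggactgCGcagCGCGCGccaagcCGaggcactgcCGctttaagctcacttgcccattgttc
Hmga1: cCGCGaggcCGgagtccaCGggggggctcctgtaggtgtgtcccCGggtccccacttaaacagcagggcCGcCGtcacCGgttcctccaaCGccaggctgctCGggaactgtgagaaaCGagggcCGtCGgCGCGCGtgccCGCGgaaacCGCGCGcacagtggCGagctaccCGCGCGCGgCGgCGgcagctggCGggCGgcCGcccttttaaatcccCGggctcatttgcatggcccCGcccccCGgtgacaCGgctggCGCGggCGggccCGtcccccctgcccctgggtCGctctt
Cdk6: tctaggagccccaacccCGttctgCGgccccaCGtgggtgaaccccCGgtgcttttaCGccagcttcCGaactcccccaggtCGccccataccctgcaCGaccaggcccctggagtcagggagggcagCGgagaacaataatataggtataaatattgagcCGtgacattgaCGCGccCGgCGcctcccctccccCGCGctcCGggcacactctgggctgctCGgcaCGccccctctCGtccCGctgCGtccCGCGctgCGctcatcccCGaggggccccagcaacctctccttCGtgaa
Gstp3 (chr19:4059398-4059697, - strand) lay in a region broad in BN1 and MA9, and its promoter held 5 CpGs.
Gstp3: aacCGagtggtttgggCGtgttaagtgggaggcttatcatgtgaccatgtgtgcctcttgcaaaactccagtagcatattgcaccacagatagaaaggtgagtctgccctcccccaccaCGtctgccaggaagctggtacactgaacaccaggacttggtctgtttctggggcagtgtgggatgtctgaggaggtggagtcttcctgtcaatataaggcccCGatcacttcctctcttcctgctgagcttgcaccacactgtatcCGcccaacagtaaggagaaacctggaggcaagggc
S100a8 (chr3:90668821-90669120, + strand), S100a9 (chr3:90695672-90695971, - strand) and Ngp (chr9:110419558-110419857, + strand) lay in regions broad in Control libraries alone. They held 4, 2 and 3 CpGs.
S100a8: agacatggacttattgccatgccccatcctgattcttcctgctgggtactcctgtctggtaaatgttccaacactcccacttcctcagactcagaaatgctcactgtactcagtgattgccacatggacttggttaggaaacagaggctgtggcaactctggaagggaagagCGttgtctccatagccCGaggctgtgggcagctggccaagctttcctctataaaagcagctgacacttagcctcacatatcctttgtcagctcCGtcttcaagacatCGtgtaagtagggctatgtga
S100a9: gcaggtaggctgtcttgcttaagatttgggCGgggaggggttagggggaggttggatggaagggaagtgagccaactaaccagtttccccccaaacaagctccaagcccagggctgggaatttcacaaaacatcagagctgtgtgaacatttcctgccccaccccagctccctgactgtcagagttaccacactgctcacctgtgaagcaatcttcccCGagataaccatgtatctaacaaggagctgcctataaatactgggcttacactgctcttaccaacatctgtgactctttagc
Ngp: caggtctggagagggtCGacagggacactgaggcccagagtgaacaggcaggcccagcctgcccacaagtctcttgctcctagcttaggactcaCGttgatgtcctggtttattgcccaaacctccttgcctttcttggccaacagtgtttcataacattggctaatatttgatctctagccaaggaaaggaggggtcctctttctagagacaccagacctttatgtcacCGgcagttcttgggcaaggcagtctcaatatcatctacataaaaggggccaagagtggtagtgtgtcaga
One broad region covers the gene of miR-142, a microRNA of blood cells whose mature strands are printed with the seed (bases 2 to 8) in capitals. They map to chr11:87756867-87756887 and chr11:87756903-87756925, both on the + strand.
mmu-miR-142a-5p: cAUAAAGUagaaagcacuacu
mmu-miR-142a-3p: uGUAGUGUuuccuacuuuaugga

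Broad peaks were few in BN1 and ME and common in MA9 and Control. Peaks of 2000 bp or more numbered 6, 5 and 5 in BN1, 8, 10 and 9 in ME, 149, 99 and 120 in MA9, and 143, 132 and 166 in Control. Their share of all peaks in a list averaged 0.151% ± 0.0134 in BN1, 0.0974% ± 0.0126 in ME, 0.375% ± 0.067 in MA9 and 0.543% ± 0.0428 in Control (SD, n = 3 each). List length differed too, from 3011 to 4258 peaks in BN1, 8546 to 9663 in ME, 31968 to 33588 in MA9 and 25541 to 28023 in Control. The part of list length in the number of broad peaks was not tested. The library medians of the width of all peaks averaged 347 bp in BN1, 330.0 bp in ME, 329 bp in MA9 and 364 bp in Control.

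Replicates of a group shared most but not all of their broad peaks. Between MA9 libraries, a median of 64.9% of the broad peaks of one were met by a broad peak of another (range 55.8% to 86.9%), and between Control libraries 76.5% (68.1% to 84.8%). Across those groups the shares were lower: a median of 30.3% of the broad peaks of an MA9 library were broad in a Control library (25.5% to 34.2%), and 23.5% the other way (17.5% to 28.8%). By any library of a group, 121 regions were broad in MA9 alone, 146 in Control alone and 52 in MA9 and Control. The other 12 regions were broad in some library of BN1 or ME. Of the 331 regions, 109 were broad in 1 library only and 3 in all 12.

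**Figure D1:**
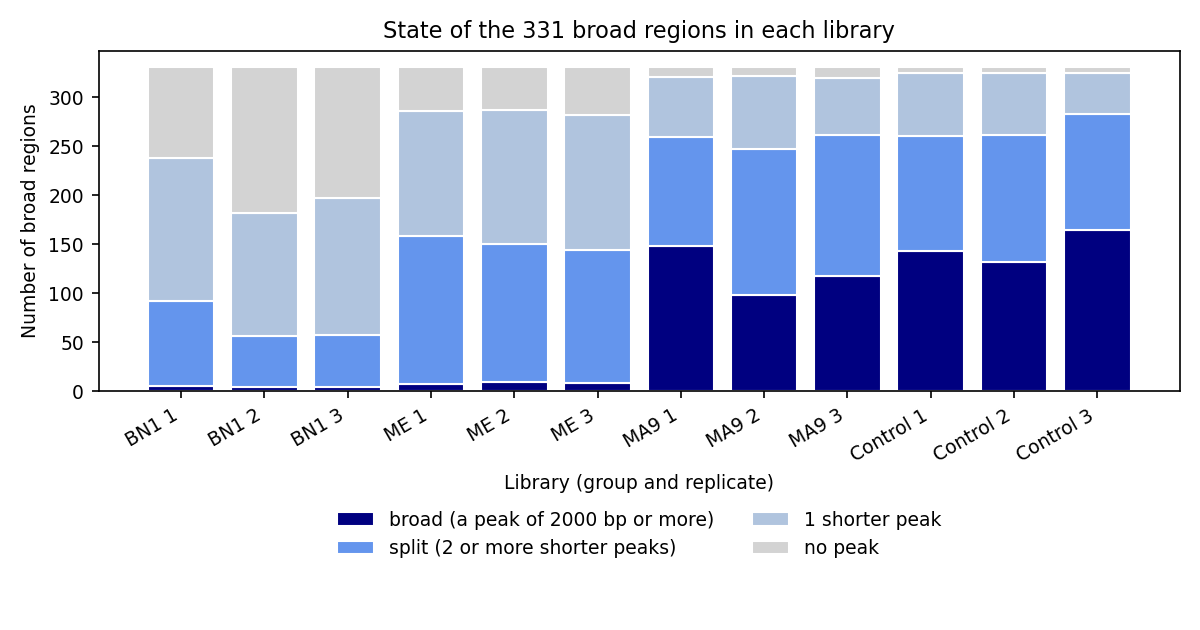
Number of the 331 broad regions in each state (vertical axis) in each of the 12 libraries (horizontal axis): holding a peak of 2000 bp or more, 2 or more shorter peaks, 1 shorter peak, or no peak. In BN1 and ME few regions stayed broad, and each BN1 library had more regions with no peak than any library of another group.

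The widest regions were open in every group. A row of 3 lay on chromosome 5: chr5:32717629-32727240 and chr5:32727428-32731232, which overlap the non-coding genes Gm2420 and Gm52771, and chr5:32733298-32742645, which runs over Pisd, the mitochondrial enzyme that makes phosphatidylethanolamine. Pisd was spanned by a single peak of 9338, 9327 and 9318 bp in BN1, 9322, 9328 and 9336 bp in ME, and 9323, 9310 and 9292 bp in Control, while the longest MA9 peaks were 2813, 6379 and 6143 bp. All 3 MA9 libraries thus had a shorter peak there than any other library. Another region, at LOC108167694 on chromosome 9 (chr9:124422412-124426071), measured 3449, 3480 and 3424 bp in BN1, 3529, 3534 and 3528 bp in ME, 3660, 3610 and 3621 bp in MA9, and 3218, 3201 and 3180 bp in Control. These 4 regions supplied most broad peaks of BN1, so values for BN1 broad peaks below rest largely on them.

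The region of miR-142 and Tspoap1 (chr11:87753873-87761295), which spans 7423 bp, showed the grades from unbroken to split. Its longest peak was 2029, 1201 and 749 bp in BN1, 2357, 2250 and 2181 bp in ME, 6652, 6179 and 5936 bp in MA9, and 7290, 7298 and 7297 bp in Control. It was 1 peak in every Control library, 1 or 2 peaks in MA9, and 4 peaks in every ME and BN1 library. Neat1, a non-coding RNA that builds nuclear paraspeckles, followed the same order, with 1269, 1223 and 1251 bp in BN1, 1611, 1596 and 1867 bp in ME, 4954, 4950 and 5993 bp in MA9, and 6577, 6689 and 6763 bp in Control. Malat1, its nuclear-speckle neighbour, had a longest peak of 874 to 891 bp in BN1, 903 to 1507 bp in ME, 1830 to 2190 bp in MA9 and 4180 to 4342 bp in Control.

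**Figure D2:**
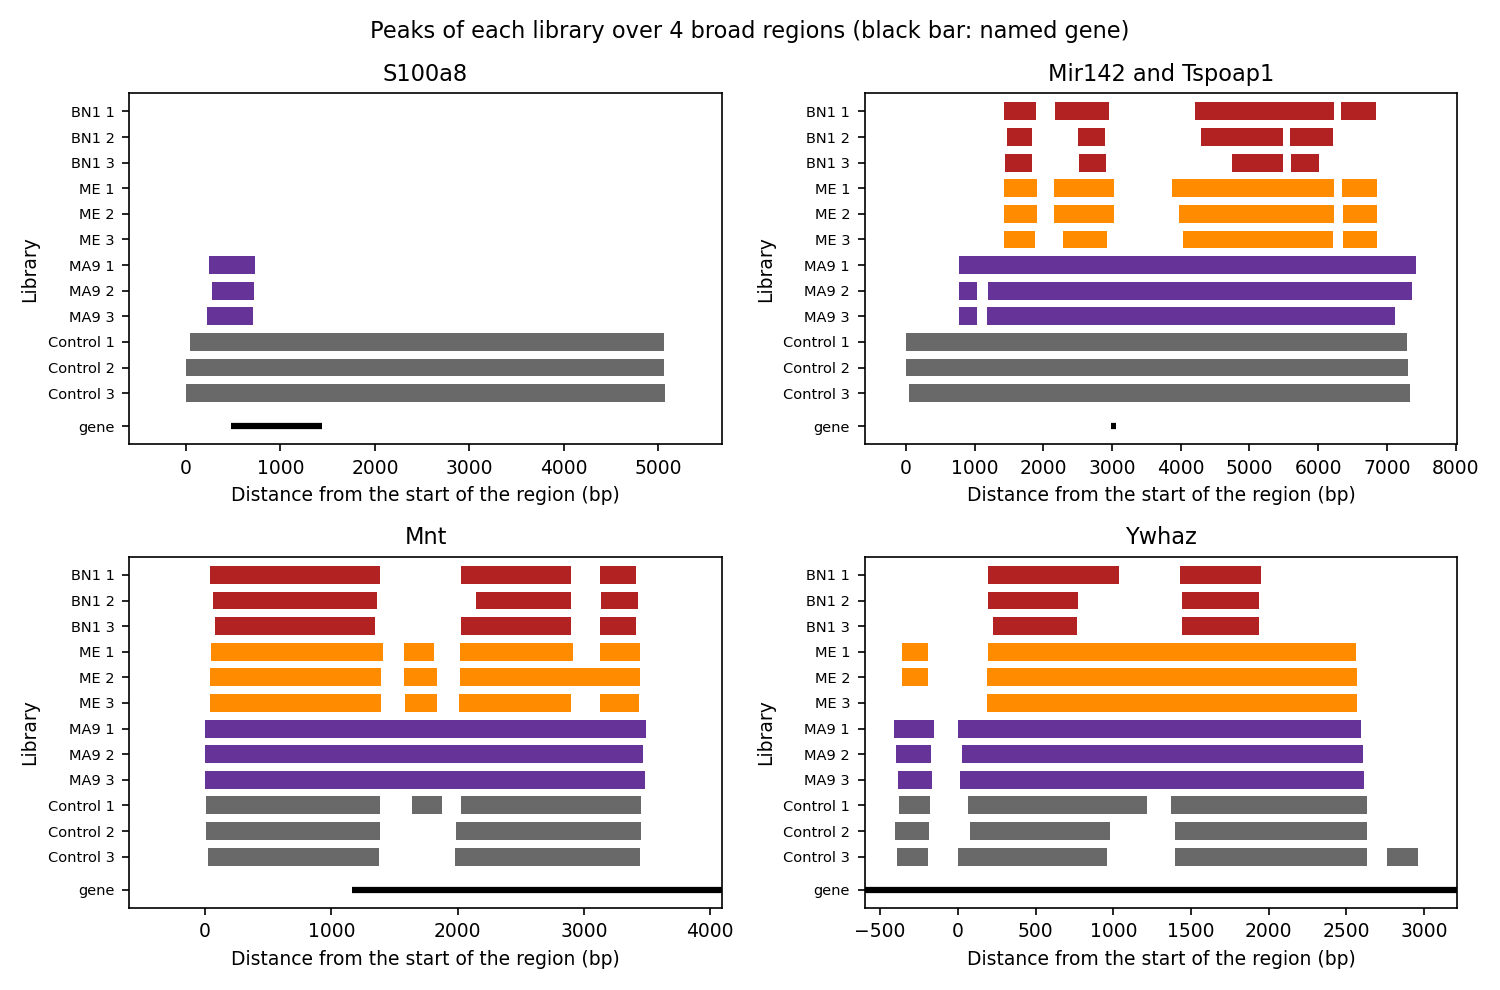
Peaks of each library (rows) over 4 broad regions, by distance from the start of the region in bp, with the span of the named gene in black. S100a8 held a peak in Control and MA9 libraries only. The region of miR-142 and Tspoap1 was in 4 pieces in BN1 and ME. The miR-142 gene itself lay between peaks in every BN1 library and in ME replicate 3, and a peak ended inside it in ME replicates 1 and 2. Mnt was 1 peak only in MA9, and Ywhaz was 1 broad peak in ME and MA9.

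Regions over genes of mature blood cells were broad in Control and in no leukaemia library. Of 20 neutrophil maturation genes, 0 overlapped a region broad in any BN1, ME or MA9 library and 5 (25%) a region broad in any Control library; over all 20665 protein-coding genes the share was 0.0242% in BN1, 0.0387% in ME, 0.987% in MA9 and 0.987% in Control, and 1.65% for a region broad in any library. S100a8 and S100a9 form the neutrophil protein calprotectin. S100a8 held no peak in BN1 or ME, peaks of 483, 438 and 486 bp in MA9, and peaks of 5010, 5057 and 5066 bp in Control. S100a9 held no peak in any leukaemia library and 4802, 4882 and 4862 bp in Control. Ngp, a granule protein, had no peak in BN1 or ME, and measured 317, 299 and 331 bp in MA9 and 5618, 5637 and 3571 bp in Control. Retnlg, a resistin-like protein of neutrophils, and Ltf, which encodes lactoferrin, completed the 5.

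Other lineages gave smaller counts. Of 15 monocyte and macrophage genes 2 were covered by regions broad in Control, Lyz2 (lysozyme; no peak in any leukaemia library and 3408, 3201 and 4005 bp in Control) and Spi1, which encodes the transcription factor PU.1. A broad region at Spi1 had a peak in every library, at 284 to 313 bp in BN1, 894 to 906 bp in ME, 1493 to 1772 bp in MA9 and 2721 to 3039 bp in Control. Another broad region at Spi1 had a peak in every ME, MA9 and Control library and in no BN1 library. Of 20 B cell genes 2 were covered, Cd79a, a chain of the B cell receptor, and Cd74, the invariant chain of MHC class II, which had no peak in BN1 or ME, 604 to 800 bp in MA9, and 3497, 4818 and 3827 bp in Control. Of 16 red cell genes 1 was covered, Hba-a1, an alpha globin gene with a near-identical copy, so reads there may be shared, with 2800, 2629 and 2866 bp in Control alone. None of 15 T and NK cell genes was covered. Among 20 surface and adhesion genes of blood cells, 0 were covered in any leukaemia and 5 in Control: Cd53, Cxcr4, Coro1a, Cd47 and Arhgdib.

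The counts of genes with a peak of any width differed in order from list to list. A peak within 1 kb in all 3 libraries was present at 0 of 20 neutrophil maturation genes in BN1, 2 in ME, 11 in MA9 and 16 in Control, and at 0, 1, 10 and 18 of 20 B cell genes in that order. Among red cell genes the counts were 1 of 16 in BN1, 5 in ME, 5 in MA9 and 15 in Control. Surface and adhesion genes had 4 of 20 in BN1, 10 in ME, 19 in MA9 and 20 in Control, and T and NK cell genes 1 of 15 in BN1, 1 in ME, 4 in MA9 and 5 in Control. In 3 further blood cell lists MA9 had more such genes than Control. These were the monocyte and macrophage genes (3 of 15 in BN1, 7 in ME, 13 in MA9 and 10 in Control), the promyelocyte granule genes (3 of 12 in BN1, 6 in ME, 11 in MA9 and 6 in Control), and the stem and progenitor genes (1 of 16 in BN1, 5 in ME, 13 in MA9 and 9 in Control). Over all protein-coding genes the shares were 12% in BN1, 31.9% in ME, 56.1% in MA9 and 51.8% in Control. Fewer cells of a lineage among those sorted and less open chromatin per cell cannot be told apart in these bulk libraries.

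Some immediate-early genes and histone genes were covered in Control and, in part, in MA9. Of 30 immediate-early and stress genes, 0 lay in regions broad in BN1 or ME, 4 in regions broad in MA9 and 10 in regions broad in Control. Of the 30 genes, 16 had a peak of some width in all 3 BN1 libraries, 26 in ME, 28 in MA9 and 28 in Control. Ier2, an early response gene, had a longest peak of 347, 283 and 285 bp in BN1, 988, 876 and 860 bp in ME, 1717, 1655 and 1675 bp in MA9, and 5852, 5656 and 3352 bp in Control. Its region was in 5 pieces in each MA9 library. Junb, a subunit of the AP-1 factor, measured 355 to 638 bp in BN1, 595 to 617 bp in ME, 1786 to 1808 bp in MA9 and 1943 to 3186 bp in Control. Jund, another subunit, was 632 to 1003 bp in BN1, 1100 to 1337 bp in ME, 2956, 2760 and 2522 bp in MA9, and 2940, 2949 and 1429 bp in Control, so MA9 and Control overlapped. Zfp36l2, which destabilises messenger RNA, was also broad in MA9 and Control.

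Of 22 histone genes, linker (H1) histones included, 9 were covered in MA9 and 11 in Control. The histone cluster of chromosome 13 held 11 broad regions over 25 histone genes. Of these regions 0 were broad in BN1 or ME, 5 in any MA9 library and 10 in any Control library, and 1 in all 3 MA9 and 8 in all 3 Control libraries. In ME each of the 11 still held a peak, split in 6 and shrunk to 1 shorter peak in 5, whereas BN1 had no peak at 5. The region from H2ac8 to H3c4 had no peak in BN1, and measured 1163, 1171 and 1154 bp in ME, 1947, 1761 and 2166 bp in MA9, and 5657, 4337 and 6266 bp in Control. Histone genes are near-identical copies, so reads may be shared among them. Actb, the cytoskeletal actin gene, was the widest region broad in Control alone, with 532, 443 and 484 bp in BN1, 1236, 638 and 1217 bp in ME, 1861, 1372 and 1844 bp in MA9, and 6149, 6144 and 6139 bp in Control.

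Of 20 genes listed under splicing and RNA-binding, 6 were covered in MA9 and 2 in Control. They were Hnrnpa2b1, Hnrnpk, Ddx5, Ptbp1, Malat1 and Neat1, of which the last 2 were those of Control. These last 2 are non-coding RNAs, which the shares over protein-coding genes leave out. Ptma, which encodes the acidic nuclear protein prothymosin alpha, measured 902, 586 and 585 bp in BN1, 2236, 2187 and 1888 bp in ME, 4291, 4170 and 4370 bp in MA9, and 2098, 1779 and 2078 bp in Control. Mnt, a partner of MAX that represses MYC targets, was 1269 to 1347 bp in BN1, 1356 to 1427 bp in ME, 3490, 3464 and 3485 bp in MA9, and 1432, 1467 and 1460 bp in Control. Brd2, a bromodomain reader of acetylated histones, had 578 to 947 bp in BN1, 1092 to 1260 bp in ME, 4339, 4317 and 2255 bp in MA9, and 1142, 1110 and 2130 bp in Control. In both genes the MA9 libraries lay above all others. For BN1 and ME this follows from naming these regions as broad in MA9 and split in BN1 and ME.

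Among 21 Hox genes and MLL fusion targets, 2 were covered in MA9 and 0 in Control. Cdk6 is a cell cycle kinase and known target of MLL fusions. The region at its promoter had no peak in BN1, and measured 958, 704 and 1044 bp in ME, 3747, 3692 and 3681 bp in MA9, and 1496, 1190 and 701 bp in Control. Further inside the gene, another region was called in MA9 alone, at 2892, 1528 and 2154 bp. The last one reached 2003, 1697 and 1353 bp in MA9, and held a peak in some library of every other group. Hoxa9, the homeobox gene that MLL fusions sustain, was 301, 499 and 469 bp in ME and 2306, 2185 and 924 bp in MA9, with no peak in BN1 or Control. At any width, 1 of the 21 had a peak in all 3 BN1 libraries, 8 in ME, 16 in MA9 and 8 in Control. Prim2, a primase subunit, held a peak of 3866, 3864 and 3852 bp in MA9, 98752 bp from the nearest gene end, and none in any other library. Its −log10 p lay between the 5.91 and 24.8 percentile of the MA9 lists, so this wide peak was among their weaker ones. An intergenic region nearest to Ppara, 63204 bp away, was likewise called in MA9 alone (2326, 2086 and 2060 bp).

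The remaining gene lists were covered seldom. Of 18 metabolic housekeeping genes, 1 was covered in ME, 3 in MA9 and 2 in Control: Ywhaz, the glycolytic enzyme gene Gapdh and the ferritin gene Ftl1. Of 14 actin and cytoskeleton genes, Pfn1 (profilin) was covered in MA9 and Actb in Control. Hsp90ab1 among 14 chaperone genes and Pabpc1 among 24 translation genes were covered in MA9 alone, and Srgn, a granule proteoglycan among 12 promyelocyte genes, in Control alone. Among 16 interferon and antigen presentation genes, H2-K1, a class I MHC gene, was covered in MA9 and Ly6e in Control. Lyl1, a blood stem cell factor and the 1 covered gene of 16 stem and progenitor genes, had a region of 2159, 2128 and 1311 bp in MA9, against 1288, 1283 and 1275 bp in Control, and beside it a region shared with Nfix of 1608, 2239 and 1498 bp in MA9 and 2191, 1373 and 2154 bp in Control. None of 12 genes of fusion partners and their cofactors, and none of 14 genes silent in blood, was covered.

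Few regions were broad in ME or BN1 beyond the shared ones. Ywhaz, a 14-3-3 adaptor protein gene, was 849, 575 and 543 bp in BN1, 2373, 2385 and 2387 bp in ME, 2593, 2584 and 2599 bp in MA9, and 1261, 1242 and 1242 bp in Control. Hmga1, an architectural protein that binds AT-rich DNA, was 1530, 670 and 1064 bp in BN1, 2117, 2125 and 2101 bp in ME, 2237, 2230 and 2242 bp in MA9, and 1448, 1429 and 1446 bp in Control. Both were unbroken in ME and MA9 and split in Control. Gstp3, a pi-class glutathione transferase gene, was the 1 region broad in BN1 and not in Control: 2113, 2337 and 2119 bp in BN1, 448, 403 and 420 bp in ME, 2525, 2585 and 2675 bp in MA9, and 401, 378 and 362 bp in Control. BN1 and MA9 libraries lay above ME and Control there, which follows in part from picking the region by these widths.

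**Figure D3:**
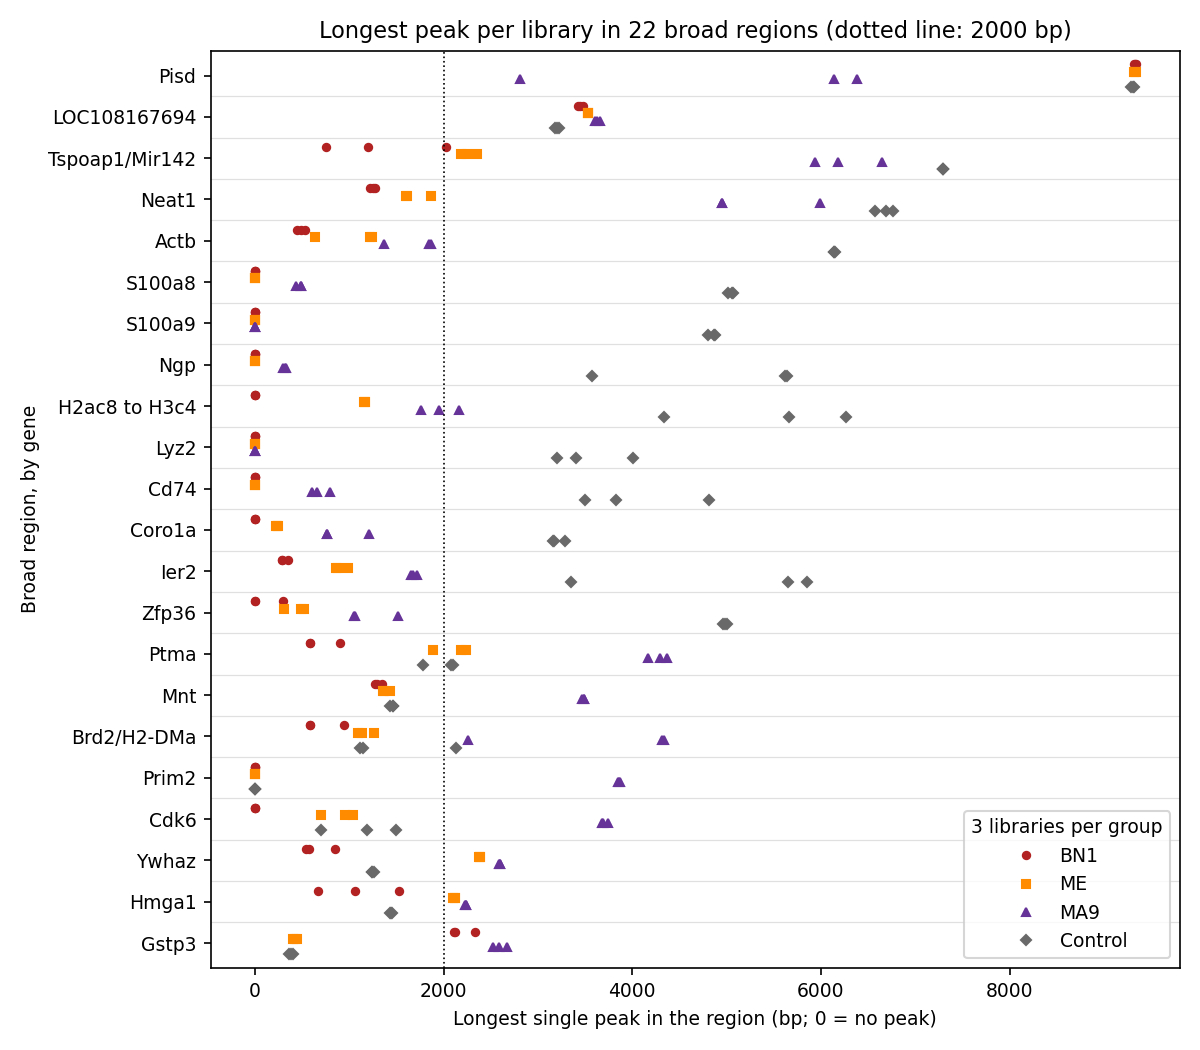
Longest single peak in bp (horizontal axis, 0 for no peak) in each of 22 broad regions (rows), with 1 point per library. S100a8 and S100a9 were wide in Control alone, Ptma, Mnt, Prim2 and Cdk6 were widest in MA9, and Gstp3 was wide in BN1 and MA9.

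Loss of breadth took different forms in the 3 leukaemias. Of the 101 regions broad in all 3 Control libraries, BN1 kept 4 broad in all its libraries, split 21, shrank 24 to 1 shorter peak and had no peak in 24. ME kept 5, split 40, shrank 28 and had no peak in 15. MA9 kept 20, split 39, shrank 11 and had no peak in 4, which were S100a9, Lyz2, Retnlg and Hba-a1. The remaining regions differed among the libraries of the group. As a share of all 43905 regions, those broad in all 3 libraries were 0.0114% in BN1, 0.0159% in ME, 0.143% in MA9 and 0.23% in Control. The reverse held for the 63 regions broad in all 3 MA9 libraries: Control kept 20, split 22, shrank 6 and had no peak in 3. The median share of the 331 regions covered by peaks was 13.6% in BN1, 33.7% in ME, 84.7% in MA9 and 88.5% in Control. Of these regions, 146 were broad in Control alone, 121 in MA9 alone and 52 in both of those groups. High cover in MA9 and Control and low cover in BN1 and ME were thus partly set by the choice of regions.

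Among leukaemias, which took no part in choosing the 205 regions broad in any Control library, the share still called differed. It was 65.9%, 53.2% and 58.0% in BN1, 81.0%, 82% and 79.5% in ME, and 95.6%, 96.1% and 95.1% in MA9. The exact permutation test across the 3 groups, on the between-group sum of squares, gave p = 0.00357, the smallest the design allows. After Benjamini-Hochberg adjustment over 9 tests it was 0.00536. Of the regions of any width called in any Control library, single libraries called 13%, 9.48% and 10.9% in BN1, 28.7%, 28.6% and 25.7% in ME, and 68.6%, 66.5% and 66.9% in MA9, and all 3 libraries called 8.57% in BN1, 25% in ME and 63.7% in MA9. The share of the 205 that stayed broad was 2.44%, 1.95% and 1.95% in BN1, 2.93%, 3.41% and 2.44% in ME, and 22.9%, 16.6% and 22.4% in MA9 (exact permutation p = 0.00714, adjusted 0.00918). BN1 and ME overlapped and MA9 lay above both. At 3000 bp the broad share of BN1 minus MA9 was -6.17 percentage points, against -18.5 at 2000 bp. With every list shortened to its 3011 peaks of highest signal, the called share of BN1 minus MA9 was -5.45 percentage points, against -36.6 in full lists. ME minus MA9 was -7.92, against -14.8 in full lists, and BN1 minus ME was 2.48, the reverse of the -21.8 in full lists (exact permutation p = 0.00357 across the 3 groups).

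The 184 regions broad in any MA9 library were mostly called elsewhere but were seldom broad. They were called at 85.9%, 66.8% and 70.7% in BN1, 95.7%, 95.1% and 95.1% in ME, and 97.3% in each Control library (exact permutation p = 0.00357, adjusted 0.00536). Of the regions of any width called in any MA9 library, single libraries called 10.7%, 7.74% and 8.91% in BN1, 24.6%, 24.5% and 21.8% in ME, and 54.1%, 51.6% and 54.6% in Control, and all 3 libraries called 6.95% in BN1, 21.1% in ME and 50% in Control. They were broad at 3.26%, 2.72% and 2.72% in BN1, 4.35%, 5.43% and 4.35% in ME, and 27.7%, 26.6% and 26.6% in Control (exact permutation p = 0.00357, adjusted 0.00536). In lists of equal length the called share of BN1 minus Control was -1.99 percentage points, against -22.8 in full lists, and the groups did not differ past the threshold (exact permutation p = 0.0821). For the 6 regions broad in any BN1 library the broad share was 83.3% in each ME library, 83.3%, 83.3% and 100% in MA9, and 83.3% in each Control library (exact permutation p = 1). Of the regions of any width called in any BN1 library, single libraries called 94.8% to 96.3% in ME, 98.2% to 98.3% in MA9 and 95.4% to 95.8% in Control, and all 3 libraries called 94.3% in ME, 98.1% in MA9 and 95.2% in Control.

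Complete gain or loss was counted from peaks of any width. With a peak in all 3 Control libraries and none in the leukaemia, 79 of the 331 regions (23.9%) were lost in BN1, 38 (11.5%) in ME and 8 (2.42%) in MA9, against 43.4%, 33.4% and 12.1% of all 43905 regions. In the other direction 0 were gained in BN1, 3 in ME and 5 in MA9, where the backgrounds were 0.082%, 0.911% and 21.1%. The 5 gained in MA9 were Prim2, Hoxa9, the middle one of 3 broad regions in Cdk6, and regions near Ppara and Zdhhc14. Between leukaemias, 38 regions (11.5%) with a peak in all 3 ME libraries had none in BN1, against 8.09% of all regions, and 0 were the reverse (background 0.0456%). With MA9 in place of ME, BN1 had lost 73 (22.1%, background 53%) and gained 0 (background 0.0319%). ME against MA9 had lost 31 (9.37%, background 41.4%) and gained 1, an intergenic region near 1700008P02Rik (background 0.107%).

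The promoters inside broad peaks differed in CpG content between MA9 and Control. The median CpG count per 300-base promoter was 13.5 in each BN1 library, 32.5, 29.5 and 29 in ME, 26, 27.5 and 27 in MA9, and 14.5, 14 and 14.5 in Control. The exact permutation test across the 4 groups, on the between-group sum of squares, gave p = 6.49e-05, the smallest possible (adjusted 0.000584). MA9 exceeded Control by 12.5 with no overlap, although 3 libraries against 3 cannot give p below 0.1. At a width of 1500 bp the difference was 8 and the exact permutation test across groups gave p = 0.102. Promoters in peaks of any width had medians of 24 to 25 CpGs in BN1, 25 in ME, 23 in MA9 and 22 in Control. The median of all 31396 promoters in the RefSeq table used was 7. BN1 held 4 promoters per library and ME 6 to 8, so their medians rest on very few genes. A promoter of the table lay in 61.0% of the regions broad in any Control library and 70.1% of those broad in any MA9 library. The other regions gave no CpG value, among them those of Actb, Ier2, Jund, Zfp36l2 and Ywhaz.

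By region, promoters broad in MA9 and in no Control library had a median of 28 CpGs (146 promoters), those broad in Control and in no MA9 library 12.5 (112 promoters) and those broad in both 17 (68 promoters). Under 10 CpGs were found in 3.42%, 36.6% and 25% of these promoters. The letters TATAAA, searched on both strands of the 300 bases, occurred in 7.53% of the promoters broad in MA9 and in no Control library, 16.1% of those broad in Control and in no MA9 library and 16.2% of those broad in both, against 13.6% of all promoters in the table. Of the 7 promoters printed above, those of S100a8, S100a9 and Cdk6 held it.

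**Figure D4:**
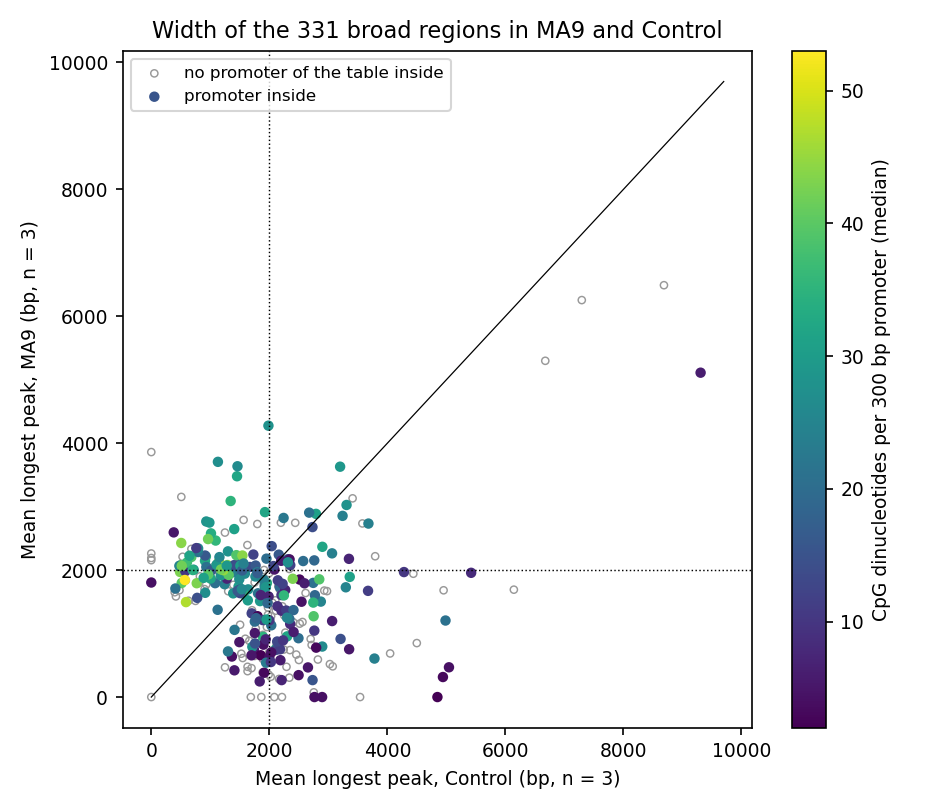
Mean longest peak of each of the 331 broad regions in MA9 (vertical axis, bp) and in Control (horizontal axis, bp), n = 3 libraries each, coloured by the median CpG count of promoters inside the region; open circles hold no promoter of the table. Dotted lines mark 2000 bp; the median CpG count per region was 28 in regions broad in MA9 and in no Control library and 12 in those broad in Control and in no MA9 library.

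Broad peaks also differed in where they lay along genes. The share of their bases inside protein-coding genes was 41.3%, 39.3% and 38.8% in BN1, 46.0%, 44.7% and 39.8% in ME, 67.0%, 67.7% and 64.8% in MA9, and 54.8%, 54.1% and 55.2% in Control (exact permutation p = 0.00013, adjusted 0.000584). MA9 exceeded Control by 11.8 percentage points, and by 4.84 with peaks at most 200 bp apart joined. This share was not computed for peaks of any width. The share of broad peaks lying at most 1 kb from an end of a protein-coding gene was 66.7%, 60% and 60% in BN1, 62.5%, 60% and 44.4% in ME, 78.5%, 78.8% and 75.8% in MA9, and 73.4%, 71.2% and 68.7% in Control (exact permutation p = 0.000779, adjusted 0.00234). That call was lost when the gene end had to lie inside the peak (exact permutation p = 0.0542). MA9 minus Control was 6.61 percentage points at 2000 bp and -0.801 at 3000 bp. ME replicate 3, the lowest library, moved its group: ME minus Control was -15.5 with it and -9.85 without it, and BN1 minus ME was 6.57 with it and 0.972 without it. Peaks of any width lay near a gene end at 64.6% in BN1, 59.8% in ME, 31.3% in MA9 and 36.0% in Control, and broad peaks exceeded these shares in every MA9 and Control library. The window runs 1 kb beyond both ends of a peak, so it is longer for a broad peak. How much of the excess follows from width was not tested.

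**Figure D5:**
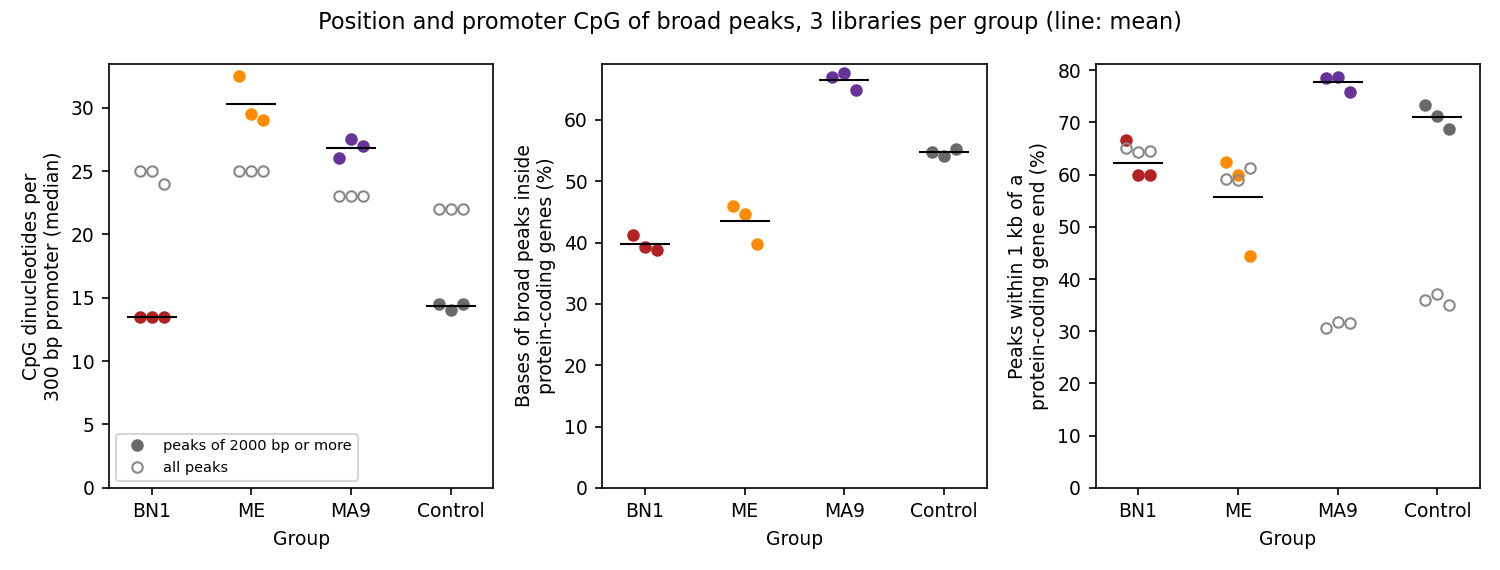
Promoter CpG count, share of broad-peak bases inside genes and share of peaks near a gene end (vertical axes) by group, with 1 point per library and a line at the mean of 3. Open circles, in the CpG and gene-end panels only, give peaks of any width. MA9 lay above Control in all 3 panels for broad peaks.

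Peaks that covered 50% or more of a protein-coding gene made up 16.7%, 20% and 20% of the broad peaks in BN1, 12.5%, 20% and 11.1% in ME, 12.1%, 11.1% and 10.8% in MA9, and 19.6%, 22% and 15.7% in Control. The groups did not differ past the threshold after adjustment (exact permutation p = 0.0482, adjusted 0.0543). Over all biotypes, the 331 regions overlapped 342 protein-coding genes, 61 long non-coding RNAs, 14 tRNAs, 8 small nuclear RNAs and 6 microRNAs.

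The narrowest members were regions at Arhgap25 (2002 bp, Control replicate 3), in Cdk6 (2003 bp, MA9 replicate 1) and near Marveld2 (2004 bp, Control replicate 1). Just under the threshold lay a peak of 1999 bp at G3bp1 in MA9 replicate 1, of 1997 bp at Cd37 in Control replicate 3 and of 1996 bp at Ubtf in MA9 replicate 2.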

How the data were processed

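The deposited data were 1 narrowPeak list per library, on mm10 (GRCm38). The submitters' processing notes name Genrich, deepTools 3.5.1, Picard 3.2.0 and Bowtie2 2.5.4. The version and options of Genrich are not given in the sources used here, and a caller's gap and threshold settings affect peak width. The deposited signal was at least 200.0, and with the deposited −log10 p and −log10 q values it was used only within a library; the deposited score is a capped display value and was not used. Read depth is unknown, so no counting interval could be given, and a region without a peak was not called, and may still have been open.

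Only peaks on chromosomes 1 to 19 were used; no peak elsewhere reached 2000 bp. Genes and promoters came from RefSeq (GRCm38.p6, 20665 protein-coding genes; promoters of chromosome 18 were not analysed here). Of the list genes, 2 were not on chromosomes 1 to 19 of that table. A region was split in a library with 2 or more shorter peaks and shrunk with 1. Regions, lists and tests were chosen with earlier results of these data known. The 6 planned tests and 3 added after seeing the data (promoter CpG, bases inside genes, cover of 50% or more of a gene) were exact permutation tests over libraries, adjusted together; the share of broad peaks holding a promoter was also looked at and was not tested. Named regions were the widest overall and by group, those lost or split most between groups, up to 4 genes per list and those nearest 2000 bp; a few others (Junb, Prim2's −log10 p, the middle Cdk6 region) were picked after their values were seen. Scripts (Python 3.11.15, numpy 2.4.6, pandas 2.3.3) were tested on simulated data. Replicate numbers did not pair the libraries.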

Additional observations from a re-analysis of the deposited data

Results flagged for a closer look

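In 3 measures of broad peaks the libraries of 1 leukaemia lay above every Control library while those of another lay below, and these opposite directions were not tested themselves. For the share of broad peaks near a gene end, BN1 minus Control was -8.88, ME minus Control -15.5 and MA9 minus Control 6.61 percentage points. These directions did not hold under every setting: with genes of every type BN1 minus Control was 17.7 and ME minus Control 2.84, and at 3000 bp MA9 minus Control was -0.801. Without ME replicate 3, ME minus Control was -9.85. For the share of broad-peak bases inside protein-coding genes, the differences were -14.9 for BN1, -11.2 for ME and 11.8 for MA9. For the promoter CpG count, they were -0.833 for BN1, 16 for ME and 12.5 for MA9. Each BN1 list held only 5 or 6 broad peaks and each ME list 8 to 10, and the regions at Pisd and LOC108167694 on chromosomes 5 and 9 were among them in every library.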

How the results depend on the processing

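Of 528 values recomputed under other settings, 479 kept their direction and side of the threshold, 19 lost the call, 7 gained one, 16 reversed, and 7 kept the side of the threshold but lost or gained a direction, with 1 of the values compared being exactly 0; where they did not hold, the cause was not tested. The replicate number as a block changed no call, and same-numbered libraries did not deviate together (correlations from -0.129 to 0.0987 over 18 pairs). For example, under the replicate block MA9 still exceeded Control by 12.5 CpGs (exact p = 0.00174). Leaving out 1 library changed no call except for cover of 50% or more of a gene, which was a call before adjustment only. Its exact permutation p across groups ranged from 0.0128 to 0.122 and was above 0.05, so not a call, in 8 of 12 fits. MA9 minus Control ranged from -9.43 to -6.28 percentage points. That difference was -3.81 (exact p = 0.059) at 1500 bp and -2.67 (exact p = 0.106) with peaks at most 200 bp apart joined. The CpG difference of MA9 over Control was 8 at 1500 bp (exact p = 0.102) and 10 to 13.8 under the other settings.

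The share near a gene end was the least stable. With the gene end inside the peak (exact p = 0.0542), the differences were -0.0104 for BN1 minus Control, -6.58 for ME minus Control, 5.99 for MA9 minus Control, 6.57 for BN1 minus ME, -6.00 for BN1 minus MA9 and -12.6 for ME minus MA9. With genes of every type, BN1 exceeded Control by 17.7 and MA9 by 13.1, and ME exceeded Control by 2.84. Without the 5 regions broad in 10 or more libraries, a setting chosen after seeing the data, BN1 exceeded Control by 28.5 and MA9 by 21.6, with 1 peak left in each BN1 library. BN1 minus ME was -22.6 at 1500 bp and -13.1 in the widest 1%, where ME minus Control was 5.37 and 4.71. At 3000 bp MA9 minus Control was -0.801 and BN1 minus ME 0.

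At 3000 bp, BN1 minus ME was also 0 in the broad share of Control-broad and of MA9-broad regions, and ME minus Control was 0 in the called share of regions broad in all 3 MA9 libraries. In lists of equal length, BN1 exceeded ME by 2.48 in the called share of Control-broad regions. For MA9-broad regions (exact p = 0.0821) the called share was -1.99 for BN1 minus Control, -9.78 for BN1 minus ME and 7.79 for ME minus Control. For the broad share of the few BN1-broad regions, MA9 minus Control was 22.8 at 1500 bp, -25 at 3000 bp, 29.9 in the widest 1% and 100 without the 5 regions, which leaves 1. ME minus Control was 31.6, 34.5 and 0 at 1500 bp, in the widest 1% and without the 5, and -7.41 with peaks at most 200 bp apart joined, and ME minus MA9 was 8.77, 25, 4.52 and -100 in the order 1500 bp, 3000 bp, widest 1% and without the 5. Leaving out 1 library, MA9 minus Control ranged from 0 to 8.33 and ME minus MA9 from -8.33 to 0, both 0 without MA9 replicate 3.

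Unknown read depth and unstated caller options limit every width, since breadth can follow depth. BN1 and ME values rest on 5 to 10 broad peaks a library, and 3 libraries against 3 cannot give p below 0.1.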
